A study of Ovis aries with 6 samples.

Results

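KRTAP4.3 and KRTAP5.4 are the 2 genes on the sheep array whose RefSeq symbol names a keratin-associated protein, and each has 1 probe. They were taken as all non-control probes whose RefSeq accession belongs to one of these symbols, which gave 2 of 500 named genes and 2 of 15008 probes. KRTAP4.3 was read by probe A_70_P016416 (accession NM_001161382), spotted once per array, and KRTAP5.4 by probe A_70_P051031 (accession NM_001009398), spotted 5 times per array. The samples were dorsal skin of Hu sheep lambs aged 2 days, 3 lambs with a large wave coat and 3 with a small wave coat, each hybridised to its own one-colour Cy3 array. All lambs had the same sire, and each large wave lamb had a small wave lamb of the same dam as its partner, per the series' design text. The labels name no treatment or genotype.

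Keratin-associated proteins fill the space between the keratin filaments of the hair shaft. Their cysteines form disulphide bonds with the filaments and with one another, which gives wool and hair their stiffness. Both genes belong to families with a very high share of cysteine: KRTAP4 proteins are known from the cortex, the body of the fibre, and KRTAP5 proteins from its cuticle, the outer sheath. Their genes are switched on late, in the cells of the follicle that are about to harden. Families of this kind have many near-identical copies, so a probe may read more than the gene it is named for. The probe sequences were not analysed here.

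RefSeq's gene table for the sheep assembly ARS-UI_Ramb_v3.0 was used for names and gene order. In it, 7 genes carry a keratin-associated protein name or synonym, and 2 of these were on the array. KRTAP4.3 lay among genes of its own kind, with KRTAP1-3 placed 11 genes before it and KRTAP29-1 placed 12 genes after it. The genes nearest to it that the array also names were BIIIB4, the hair keratin KRT33A, LOC100526782, V15 (keratin 31), K38 (keratin 38) and KRT35. KRTAP5.4 lay apart from these, on another chromosome, next to a pseudogene and a long non-coding RNA and with DUSP8 placed 2 genes after it. Its nearest named neighbour on the array was IGF2. BIIIB4, a high-sulphur matrix protein of wool related to KAP3.2 (synonym BIIIB2), was singled out after its values were seen. Its probe was well above background on 0 of 6 arrays, with a median rank of 14496 in the deposited table, so that no level can be given for it.

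Both member probes were bright on every array. All 6 spots of KRTAP4.3 and all 30 spots of KRTAP5.4 were well above background and 0 were saturated. The scanner software flagged 1 KRTAP4.3 spot, that of large wave replicate 1, as scaled up from a low-gain scan. It flagged 0 spots of KRTAP5.4 in this way. The effect of that rescaling on the KRTAP4.3 value was not tested. The local background around them was 28 to 36 intensity units. The arrays themselves differed in brightness: the 75th percentile of the signal ran from 94.7 to 391.5, with 51.4 to 70.7% of the spots above background by the scanner's test. Within replicate numbers 1, 2 and 3 the large wave array exceeded its small wave partner by 0.46, 0.43 and 1.40 log2 units of this percentile. Comparisons below therefore use the log2 signal minus the log2 75th percentile of its array, called the scaled signal. A difference in it is a log2 fold change, and a scaled signal of 5 lies 5 log2 units above the 75th percentile. Values are always given in the order of replicates 1, 2 and 3 of a group, and the p-values measure the spread between these lambs. In skin, fewer hair-forming cells and less RNA per cell cannot be told apart.

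KRTAP4.3 ranged widely between lambs. Its processed signal was 30139, 9260 and 10785 for the large wave lambs. Small wave lambs gave 17905, 4759 and 1442. The groups overlapped, because small wave replicate 1 lay above large wave replicates 2 and 3. Small wave replicate 3 was the lowest of the 6 arrays and large wave replicate 1 the highest.

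After scaling, the same lambs were highest and lowest. KRTAP4.3 then stood at 6.27, 5.50 and 5.44 for large waves, against 5.97, 4.97 and 3.93 for small waves. The large wave mean was 5.73 ± 0.46 and the small wave mean 4.96 ± 1.02 (SD, n = 3 each). The small wave lambs thus spread over 2.05 log2 units and the large wave lambs over 0.83. Among 9223 tested probes with a value on all arrays, 80.4% had a smaller SD than KRTAP4.3 in the small wave group and 62.1% in the large wave group.

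KRTAP5.4 had a narrower range. Its processed signal, the geometric mean of its unmarked spots, was 13599, 8370 and 8155 for the large wave lambs. Small wave lambs gave 9634, 4438 and 2240. Small wave replicates 2 and 3 were below every large wave array, and small wave replicate 1 was not. Scaled, it stood at 5.12, 5.35 and 5.03 for large waves, against 5.08, 4.87 and 4.56 for small waves, with means of 5.17 ± 0.17 and 4.84 ± 0.26 (SD, n = 3 each). The groups overlapped by a single array, small wave replicate 1, which lay above large wave replicate 3. Of the 9223 probes, 14.3% had a smaller SD in the small wave group and 14.5% in the large wave group. KRTAP5.4 is a mean over several spots, as only 50 of the 15008 probes are, and the part of this averaging in its low SD was not tested.

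**Figure D1:**
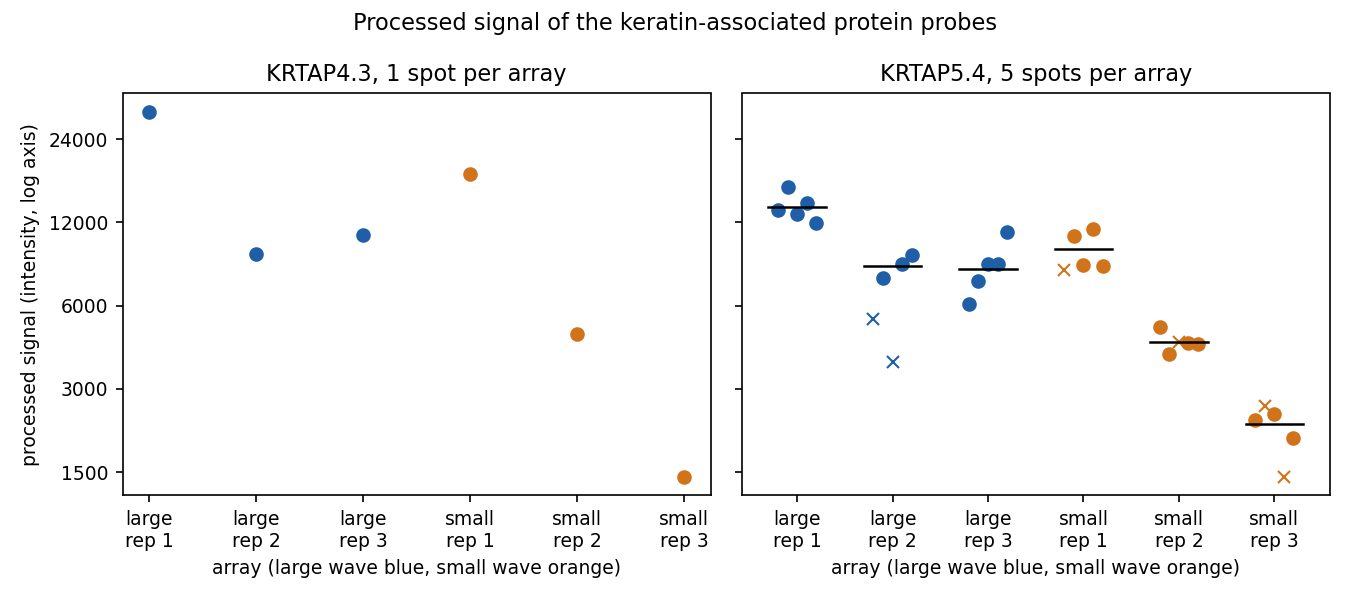
Processed signal (intensity, log axis) of KRTAP4.3 and KRTAP5.4 on each of the 6 arrays, large wave in blue and small wave in orange; points are spots, crosses are spots marked as outliers by the scanner software, and black lines are geometric means of the unmarked spots. KRTAP4.3 runs from 1442 in small wave replicate 3 to 30139 in large wave replicate 1, and the 5 spots of KRTAP5.4 scatter around each array's mean.

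The 5 spots of KRTAP5.4 give the measurement error within an array, which KRTAP4.3 with its single spot does not have. In large wave replicate 1 they ran from 11962 to 16089, and in small wave replicate 2 from 4020 to 5042. The widest was large wave replicate 2, from 3760 to 9161, a ratio of 2.44. Over all spots the pooled SD between spots of one array was 0.31 on the log2 scale, and 0.21 over unmarked spots. The SD between lambs was 0.17 in the large wave group and 0.26 in the small wave group over unmarked spots. The value of a lamb is a mean over 3 to 5 unmarked spots, which scatters less than a single spot. The SD between lambs and the SD between spots are therefore not like for like. In large wave replicate 2, 14 of the 26 comparable probes with 5 spots had a larger SD between spots than KRTAP5.4, and in small wave replicate 2 it was 22 of 24.

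The scanner software marked 6 of the 30 KRTAP5.4 spots, 20%, as outliers, 5 of them for uneven pixels and 1 for standing apart from the other spots of the probe. Over whole arrays 0.099 to 2.35% of non-control spots were marked. Of the marked spots, 2 lay on large wave replicate 2, 2 on small wave replicate 3 and 1 each on small wave replicates 1 and 2. On large wave replicate 2 both marked spots, at 5391 and 3760, were below the 3 unmarked ones, which ran from 7541 to 9161. No spot of KRTAP4.3 was marked as an outlier.

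By rank, both probes were near the top in every lamb, with 0.660 to 4.26% of probes brighter than KRTAP4.3 and 1.42 to 2.97% brighter than KRTAP5.4. Rank 1 is the brightest of the probes with an unmarked spot, 14659 to 14998 per array, and a rank describes the probe's brightness, not how much RNA there is relative to another gene. KRTAP4.3 ranked 100, 189 and 167 for large waves, against 126, 353 and 626 for small waves. KRTAP5.4 ranked 246, 210 and 222 for large waves, against 249, 380 and 436 for small waves. For both probes the lowest places were those of small wave replicates 2 and 3. Small wave replicate 1 ranked with the large wave arrays, ahead of 2 of them for KRTAP4.3 and behind all 3 for KRTAP5.4.

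The authors' deposited table gave equal or lower places on each array. KRTAP4.3 ranked 100, 211 and 190 in the large wave columns and 135, 359 and 758 in the small wave columns. These were also its places by processed signal when the marked spots of other probes were kept. KRTAP5.4 ranked 249, 234 and 253 in the large wave columns and 265, 388 and 525 in the small wave columns. Its place in that table was met exactly on all 6 arrays by averaging the log2 of its unmarked spots while keeping the marked spots of other probes. Averaging all 5 spots instead put it 52 places lower on large wave replicate 2 and 30 places lower on small wave replicate 3.

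**Figure D2:**
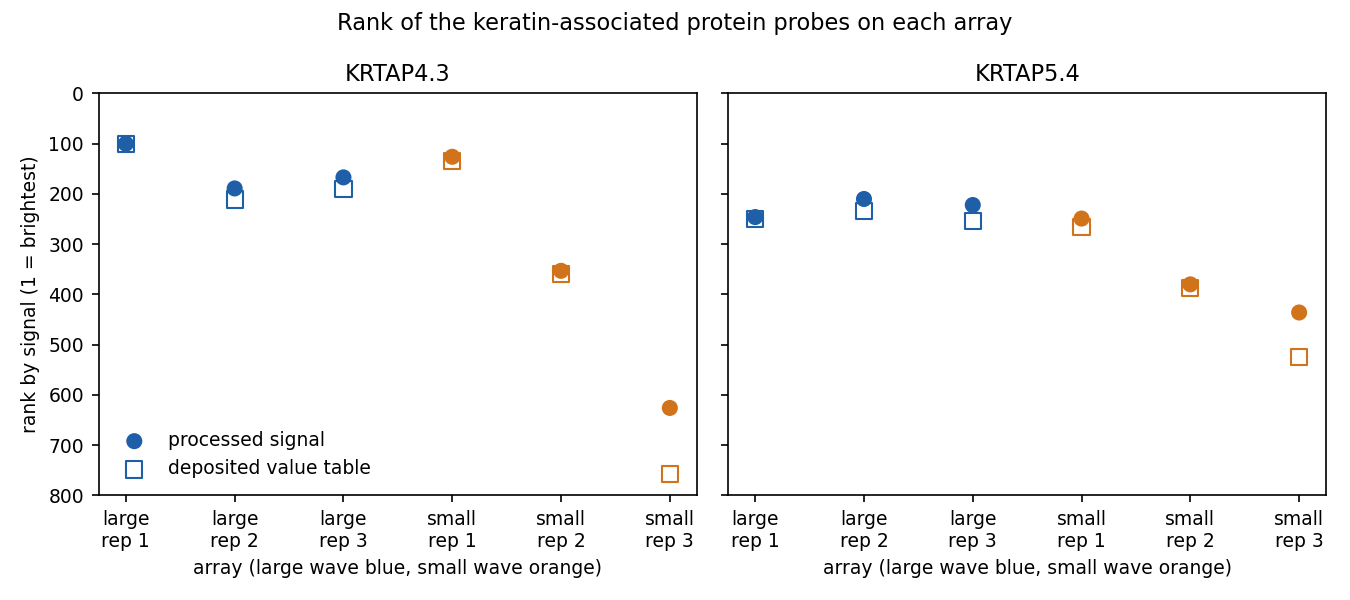
Rank by signal (1 is the brightest probe, at the top) of KRTAP4.3 and KRTAP5.4 on each array, from the processed signal (filled circles) and from the deposited value table (open squares), large wave in blue and small wave in orange. Small wave replicates 2 and 3 hold the lowest places for both probes, 353 and 626 for KRTAP4.3 and 380 and 436 for KRTAP5.4 by processed signal.

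The comparison of the coat patterns asks whether these hair shaft genes differ between large and small waves. Both were higher on average in large wave skin and neither passed the test. KRTAP4.3 had a difference of 0.78 ± 0.53 (SE, 95% confidence interval -0.45 to 2.01), which is 1.71-fold with an interval of 0.73 to 4.03-fold (limma, adjusted p = 0.778). KRTAP5.4 had a difference of 0.33 ± 0.28 (SE, 95% confidence interval -0.33 to 0.99), or 1.26-fold with an interval of 0.80 to 1.98-fold (limma, adjusted p = 0.782). Thus 0 of 2 members passed the adjusted threshold of 0.05, as did 0.0% of the 10041 probes tested. At an unadjusted p under 0.05 in limma it was also 0 of 2, against 3.82% of probes. Of all probes tested, 48.7% were higher in large wave skin, and the median difference was -0.02.

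Set against the other probes, the size of the KRTAP4.3 difference was larger than that of 79.5% of the 9223 probes, and that of KRTAP5.4 larger than 42.8%.

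In the same-numbered pairs, taken to be the lambs of one dam, the large wave lamb had the higher value of both genes each time. For KRTAP4.3 the scaled differences were 0.29, 0.53 and 1.51 in pairs 1 to 3. For KRTAP5.4 they were 0.04, 0.49 and 0.47. The large wave lamb was higher in all 3 pairs in 17.5% of the probes with 6 values, and in 16.5% of those tested from the deposited table, where both members again had 3 positive pairs. The array brightness was higher for the large wave lamb in each pair too. With the replicate number as a block the difference of KRTAP4.3 remained 0.78, with an SE of 0.34 (limma, adjusted p = 0.624). That of KRTAP5.4 remained 0.33, with an SE of 0.27 (adjusted p = 0.660).

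Small wave replicate 3 carried much of the KRTAP4.3 difference. Without this lamb it was 0.26 ± 0.44 (SE), and without small wave replicate 1, the small wave lamb closest to the large wave ones, it was 1.29 ± 0.44. Without large wave replicate 1 it was 0.51. In the fit without small wave replicate 1 the limma p was 0.024 before and 0.253 after adjustment, and there 17.6% of all probes had an unadjusted p under 0.05. For KRTAP5.4 the difference was 0.19 ± 0.29 without small wave replicate 3 and 0.45 ± 0.28 without small wave replicate 1.

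In the deposited table, where 53.0% of probes were higher in large wave skin, both differences were larger. KRTAP4.3 stood at 14.27, 13.26 and 13.41 on its log2 scale for large waves, against 13.89, 12.46 and 11.21 for small waves, a difference of 1.13 ± 0.65 (SE; limma, adjusted p = 0.818). KRTAP5.4 stood at 13.03, 13.11 and 13.00 in the large wave columns and at 12.92, 12.34 and 11.82 in the small wave columns, a difference of 0.69 ± 0.33 (SE; limma, adjusted p = 0.818). In this table the KRTAP5.4 groups did not overlap, while those of KRTAP4.3 did. All 3 large wave values were above all 3 small wave values in 4.69% of the probes tested from this table, and in 4.87% of those with 6 scaled values, where neither member was among them. The 3 large wave lambs lay within 0.11 log2 units of one another for KRTAP5.4 and the 3 small wave lambs within 1.11.

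The signal of KRTAP4.3 followed the brightness of its array even after scaling. Over the 6 arrays its scaled signal correlated with the log2 75th percentile at r = 0.980 (exact permutation p = 0.0028, adjusted p = 0.0083 over 3 relations computed, two-sided); its rank correlation was rho = 0.943 (exact permutation p = 0.017, adjusted p = 0.050). Without large wave replicate 1 and small wave replicate 3, the 2 arrays farthest from the median brightness, r was 0.918. Its scaled signal rose by 1.13 per log2 unit of brightness, and 0.38% of the 9223 probes had a higher r. KRTAP5.4 correlated at r = 0.729 (exact permutation p = 0.108, adjusted p = 0.108), with rho = 0.657 (exact permutation p = 0.175, adjusted p = 0.175), and at 0.323 without the same 2 arrays. Its slope was 0.27, and 19.4% of probes had a higher r. The x values also enter the scaled signal, with a negative sign.

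With array brightness as a covariate the difference of KRTAP4.3 was -0.12 ± 0.28 (SE; limma, adjusted p = 0.999), the only one of 20 alternatives in which it changed sign; 50.1% of probes were above 0 in that fit. That of KRTAP5.4 was 0.19 ± 0.28 (adjusted p = 0.999). Without any scaling between arrays, where 89.6% of probes were higher in large wave skin and the median of all probes was 0.74, KRTAP4.3 had 1.54 and KRTAP5.4 had 1.09. Relative to that median they were 0.79 and 0.35.

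**Figure D3:**
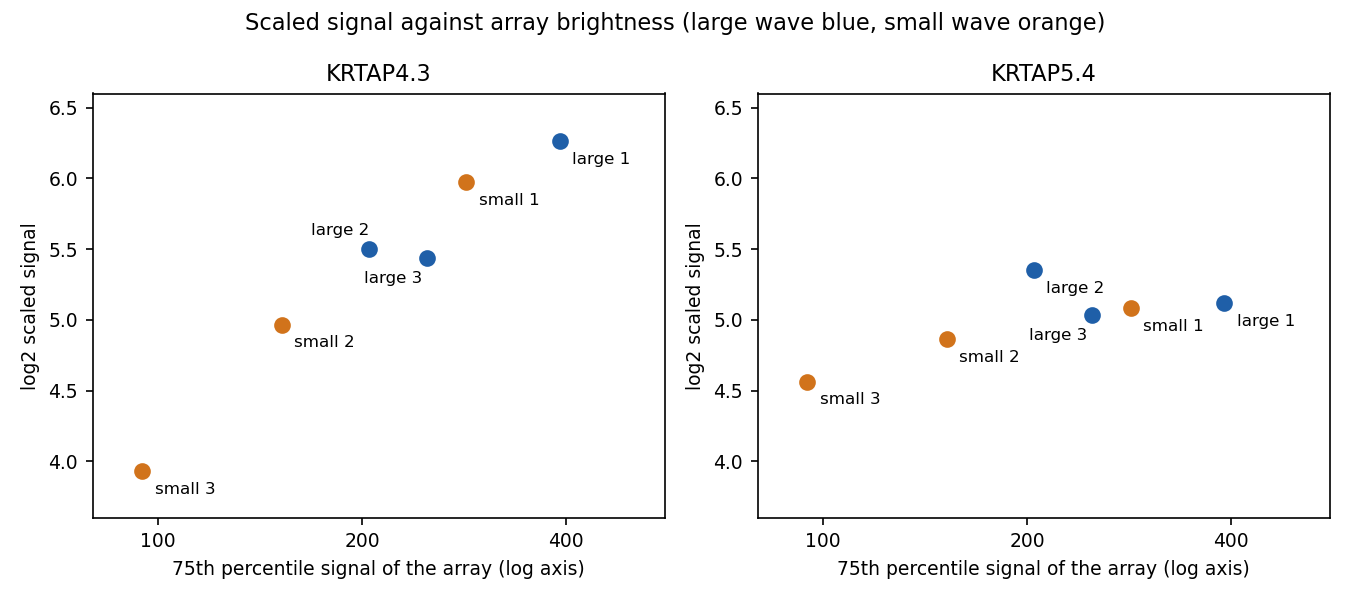
Scaled log2 signal of KRTAP4.3 and KRTAP5.4 against the 75th percentile signal of each array (log axis), large wave in blue and small wave in orange, 1 point per lamb. KRTAP4.3 runs from 3.93 on the dimmest array to 6.27 on the brightest, and KRTAP5.4 from 4.56 on the dimmest to 5.35 on large wave replicate 2.

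**Figure D4:**
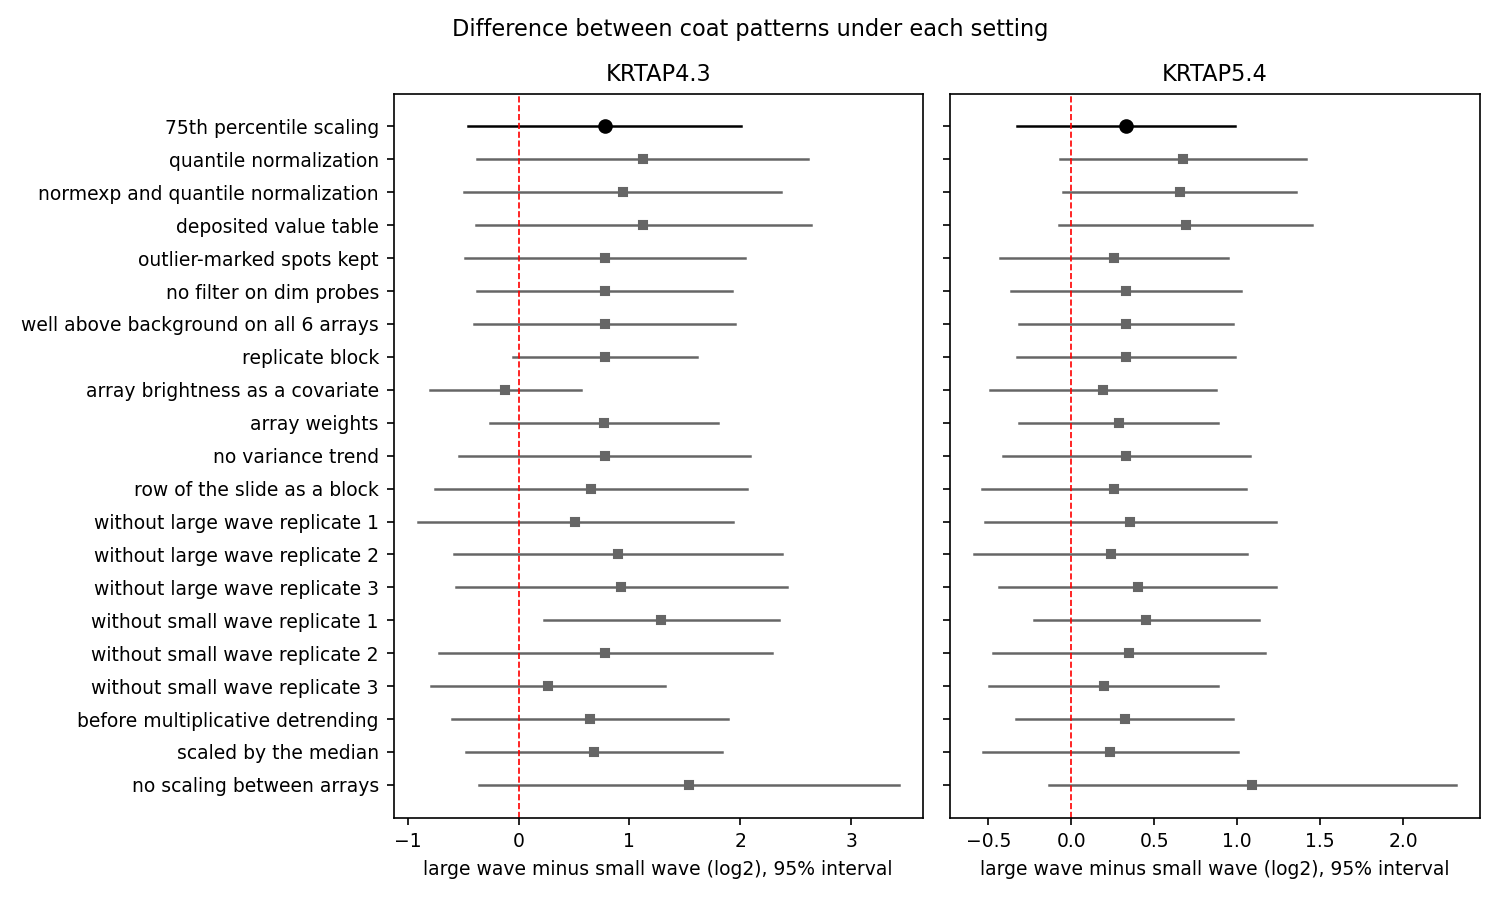
Difference between large wave and small wave skin (log2, points) with its 95% confidence interval (lines) for both probes under 75th percentile scaling (black) and each of the 20 alternatives (grey). KRTAP4.3 runs from -0.12 with array brightness as a covariate to 1.54 without scaling, and KRTAP5.4 from 0.19 to 1.09.

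The scaling subtracts the same value from both probes of an array, so it leaves their log2 ratio unchanged. The log2 ratio of KRTAP4.3 to KRTAP5.4 was 1.15, 0.15 and 0.40 for large waves, against 0.89, 0.10 and -0.64 for small waves. The groups overlapped, with means of 0.57 ± 0.52 and 0.12 ± 0.77 (SD, n = 3 each) and a difference of 0.45 (exact permutation p = 0.4, two-sided, where the smallest possible is 0.1). Within the same-numbered pairs the ratio was higher for the large wave lamb each time, by 0.25, 0.05 and 1.04 (exact paired permutation p = 0.25, two-sided, the smallest that 3 pairs can give). In replicate 1 of either group the ratio was higher than in the other lambs of that group. Without small wave replicate 3 the difference was 0.07, and without small wave replicate 1 it was 0.83.

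The scaled signals of the 2 genes correlated over the 6 arrays at r = 0.803 (exact permutation p = 0.067, adjusted p = 0.10, two-sided), with rho = 0.829 (exact permutation p = 0.058, adjusted p = 0.088), and at r = 0.470 without large wave replicate 1 and small wave replicate 3. These 2 arrays hold the highest and the lowest KRTAP4.3 value. Leaving them out narrows the range and cannot show what the relation rests on. Among 222 other named genes measured on all arrays, KRTAP5.4 was the gene in place 25 by likeness to KRTAP4.3, and KRTAP4.3 was in place 16 by likeness to KRTAP5.4.

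The named genes most like KRTAP4.3, by Pearson's r of scaled signals over 6 arrays, were SLC25A5 (r = 0.993), an ADP/ATP carrier of mitochondria, and RAB9A (0.979), a small GTPase of late endosomes. They were followed by ME1 (0.976), the cytosolic malic enzyme, VDAC1 (0.967), the channel of the outer mitochondrial membrane, and CYTH2 (0.948). Those most like KRTAP5.4 were SLC25A33 (r = 0.958), a mitochondrial carrier, the protease CAPN1 (0.953), the hyaluronidase HYAL2 (0.942), SHMT1 (0.934) of folate metabolism and the cell cycle kinase CDK2 (0.923). No hair keratin was among either set of 5; of the 6, only K38 and KRT2.11 had values on all arrays at the probe used. The median r over the 222 genes was -0.32 for KRTAP4.3 and -0.30 for KRTAP5.4. The scaled signals of KRTAP4.3 and KRTAP5.4 themselves correlated with array brightness, at r = 0.980 and 0.729. The part of brightness in these likenesses was not tested.

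The filaments that these proteins cross-link are made of hair keratins, and 6 genes of the hair keratin list had a tested probe. None of the 6 passed. In the scanner values 2 were higher and 4 lower in large wave skin, with a median of -0.41 against -0.02 over all probes tested. Of the 348 named genes tested, read by 1 probe each as these were, 139 were higher and 209 lower, with a median of -0.15. Among the 6 hair keratins, 4 lacked a value on at least 1 array, because marked spots were left out. With the marked spots kept, 3 of the 6 were higher. At the same probes all 6 were higher in the authors' deposited table, where 53.0% of all probes tested were. Both keratin-associated proteins had that sign in either source. Other probes in that table differed, with -0.34 for KRT35, 0.73 for K38, and -0.96 and 1.07 for KRT2.11. At the probes used, KRT35 was lowest there on small wave replicate 1, at 11.46, and KRT33A on small wave replicate 3, at 9.35. These 2 values come from marked spots, left out of the scanner values.

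KRT35, a type I hair keratin, stood at 5.91, 6.28 and 5.66 for large waves, against 6.82 and 7.04 in small wave lambs 2 and 3, a difference of -0.98 ± 0.36 (SE; limma, adjusted p = 0.778). It was 0.50 in the deposited table. Its other probe, measured on all arrays, had -0.69 and correlated with KRTAP4.3 at r = -0.841. V15, keratin 31 of the cortex, had a difference of -0.58 ± 0.40 over 3 large wave and 2 small wave arrays and 0.47 in the deposited table. These type I keratins therefore had the opposite sign to KRTAP4.3 in the scanner values.

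KRT33A, another type I cortex keratin, differed by 0.34 ± 0.52, measured on 1 array of large and 2 of small wave lambs, and by 1.10 in the deposited table. K38 varied between lambs, at 5.57, 5.83 and 2.45 for large waves, against 5.35, 4.64 and 3.22 for small waves, and a difference of 0.21 ± 0.93. It was low in replicate 3 of both groups. For KRT83 (LOC100526780), a type II keratin, the difference was -0.91 ± 0.87, with large wave replicate 3 at 3.90 and the other 4 measured arrays between 6.47 and 6.89. The 3 tested probes of the type II keratin KRT2.11 differed in sign. The brightest had -0.25 ± 0.41, a further probe measured on all arrays had -1.58 ± 0.77, and the last, with 1 large wave array, had 1.14 ± 0.72.

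**Figure D5:**
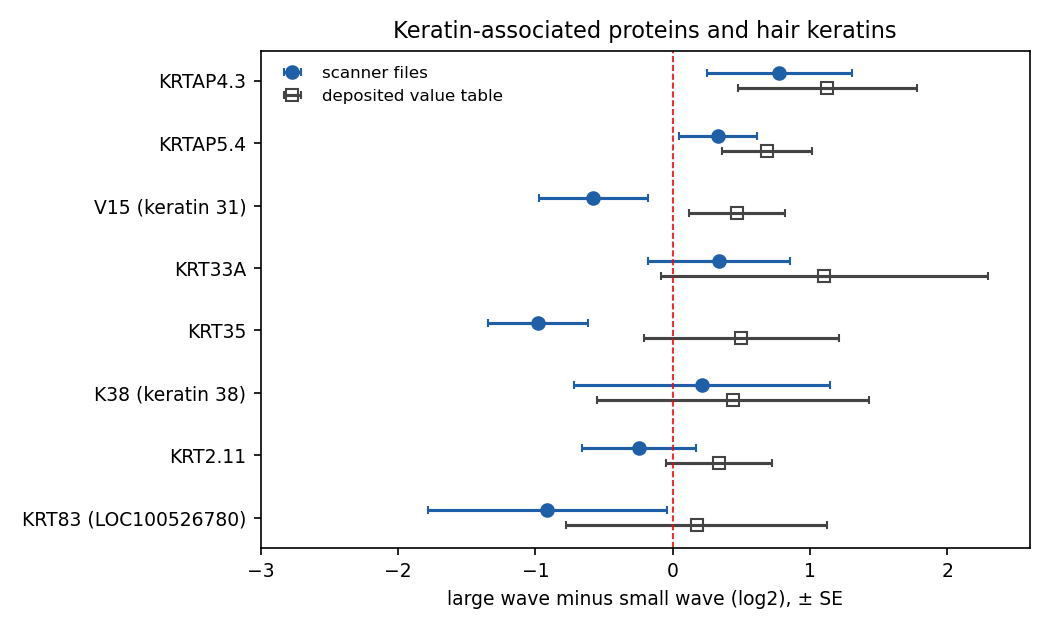
Difference between large wave and small wave skin (log2, ± SE) of the 2 keratin-associated proteins and 6 hair keratins, from the scanner files (blue circles, outlier-marked spots left out) and the authors' deposited table (open squares). The keratin-associated proteins are above 0 in both sources, at 0.78 and 0.33 in the scanner files. At the probes shown, V15, KRT35, KRT2.11 and KRT83 change sign between the sources.

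Hair keratin probes were bright, with a median rank over the arrays from 2 to 323.5 in the deposited table at the probes used. Of 4 inner root sheath genes, which mark the layer that moulds the growing shaft, 1 was higher and 3 lower at the probes used. Their median was -0.31, against -0.15 over the 348 named genes tested. The one higher was PADI3, with 1.04 ± 0.35 (SE; limma, adjusted p = 0.778); its scaled signal correlated with KRTAP5.4 at r = 0.900 and with KRTAP4.3 at 0.806 over the 6 arrays. The transcription factor GATA3 had -0.48 ± 0.39 and correlated with KRTAP4.3 at -0.942. KRT25 had -0.80 at the probe used, which lacked small wave replicate 3. Its other probe, measured on all arrays, had 0.38. For KRT27 the difference was -0.15, over 2 large wave arrays and 1 small wave array. BMP4 was the only tested gene of the matrix and cortex regulators, with 0.81 ± 0.86, and of 3 dermal papilla genes 1 was higher and 2 lower (median -0.66).

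Markers of other skin cells were measured beside them. The epidermal SFN had -1.12 ± 0.45 with 2 arrays per group, the pigment cell enzyme TYR 0.25 ± 0.59, the fibroblast proteoglycan DCN 0.10 ± 0.51 with 2 arrays per group, and AQP1 of vessels -2.29 ± 0.70. In the authors' deposited table the differences at these probes were -0.26 for SFN, 0.16 for TYR, 2.04 for DCN and -2.31 for AQP1. For DCN, small wave replicate 3 stood at 7.65 there, against 12.67 to 13.47 on the other arrays. That value comes from a marked spot, left out of the scanner values. The other DCN probe had 0.43 in the deposited table and 0.22 in the scanner values. In the scanner values all 3 adipocyte genes tested were lower (median -0.50), as were 209 of the 348 named genes (median -0.15 over the 348). Of 2 skeletal muscle genes 1 was higher, MYL11 with 0.74 ± 0.37, and 1 lower, TNNC2 with -1.35 ± 0.43. None passed (limma, lowest adjusted p = 0.778). AQP1 ran opposite to both members, at r = -0.846 with KRTAP4.3 and -0.882 with KRTAP5.4. The part of other cell types in the differences of the keratin-associated proteins was not tested.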

How the data were processed

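RNA from 6 skin samples was measured on 1 slide of array design 019921. Per the file headers, the authors' deposited scanner files hold spot intensity values from Agilent Feature Extraction 10.7.3.1 (10.7 per the submitters' processing notes), with background already subtracted in the processed signal. A further table deposited by the authors gives log2 values, each column with a median of 4.95; how it was normalized is not stated in the labels or headers. Deposited 0 or 1 marks gave outliers and spots well above background.

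The log2 processed signal minus each array's 75th percentile was averaged over the unmarked spots of a probe. Of 15008 probes, 10041 were well above background on at least 3 arrays with a value in both groups, and were tested with limma 3.58.1 in R 4.3.3 (lmFit, eBayes with a variance trend, Benjamini-Hochberg over all probes, threshold 0.05). The model was also run on simulated data with independent noise for each probe and no effect shared by the probes of an array. That run cannot show how the model handles the differences in brightness between these arrays. Names came from RefSeq accessions matched without versions; 767 of 786 such probes matched, giving 500 genes, and 1 probe, the brightest tested, stood for a gene. Precision is limited by 3 arrays per group.

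Same-numbered lambs departed from their group means together (r = 0.30, 0.18 and 0.21, each over 0.1), so the numbers were taken as pairs, although no label says so. Pair and slide column cannot be told apart. Members and lists were chosen with earlier results of these data known. Named were both members, every measured gene of the hair keratin list, and the 5 named genes most like each member. Of the other lists up to 2 genes were named by smallest unadjusted p. For the dermal papilla and adipocyte lists only counts and medians were given. KRT25 and KRT27 were named in addition. Alternatives were quantile and normexp (offset 50) normalization, the deposited table, marked spots kept, other filters, blocks for replicate and slide row, brightness as a covariate, array weights, no trend, and each array left out.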

Additional observations from a re-analysis of the deposited data

How the results depend on the processing

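Neither member passed the adjusted threshold of limma under any of the 20 alternatives run, with adjusted p from 0.253 to 0.999 for KRTAP4.3 and from 0.404 to 0.999 for KRTAP5.4. The sign of KRTAP5.4 was kept in all 20, from 0.19 to 1.09, and that of KRTAP4.3 in 19, the exception being array brightness as a covariate (-0.12). Leaving out each array in turn gave 0.26 to 1.29 for KRTAP4.3 and 0.19 to 0.45 for KRTAP5.4. The count of probes past the threshold was 0 throughout, while the 384 probes at an unadjusted p under 0.05 became 137 with the slide row as a block, 247 with the brightness covariate, 977 with array weights, 153 without large wave replicate 3, 196 without small wave replicate 3 and 1761 without small wave replicate 1. The median rank over the 6 arrays, 178 for KRTAP4.3 and 247.5 for KRTAP5.4, lay between 178 and 200.5 and between 229 and 278.5 in 4 other rankings. The replicate block, taken as the pairing of lambs, gave 0.78 and 0.33 and changed no call. Normexp with quantile normalization gave 0.94 and 0.65, and quantile normalization alone 1.12 and 0.67. The number of hair keratins higher in large wave skin, 2 of 6, was 4 after quantile normalization, 4 after normexp, 6 in the deposited table, 5 without scaling, 1 with array weights, and 1 to 3 in the 3 leave-outs that kept all 6 tested. It was 3 with marked spots kept; beyond these values the cause was not tested. The upper limit of the KRTAP5.4 interval, 1.98-fold, was 2.73-fold in the deposited table, 2.67-fold after quantile normalization and 4.99-fold without scaling. The signal before multiplicative detrending, median scaling and no scaling were chosen after seeing the data and gave 0.64, 0.68 and 1.54 for KRTAP4.3 and 0.32, 0.23 and 1.09 for KRTAP5.4. The paired test of the ratio was also added after seeing the data.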
